A study of Mus musculus with 15 samples.

Results

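The mitochondrial chromosome of the mouse carries the genes of 13 proteins of the respiratory chain, and 10 of them are described here across 5 groups of blood stem and progenitor cells. The 10 genes were chosen by name from the 45232 genes of the count table: mt-Nd1, mt-Nd2, mt-Nd4, mt-Nd5 and mt-Nd6 (subunits of complex I), mt-Cytb (complex III), mt-Co1, mt-Co2 and mt-Co3 (complex IV) and mt-Atp6 (complex V, the ATP synthase). The choice by name uses no measured value as a rule, but it was made with earlier results of these data known. The libraries were made from CD45.2+ LSK cells, sorted from bone marrow as lineage-negative, Sca-1+ and c-Kit+ cells. WT libraries came from C57BL/6 mice. The other 4 groups were irradiated CD45.1 hosts that had received JAK2/IDH2-mutant marrow cells mixed with CD45.1 WT cells. Both mutant alleles were conditional and were switched on by Mx1-Cre, which acts in blood cells and also in other tissues. The hosts were dosed by gavage with vehicle, the mutant IDH2 inhibitor AG221 (40 mg/kg), the JAK inhibitor ruxolitinib (60 mg/kg) or both drugs (the combined group) for 21 to 28 days, and were killed 1.5 h after the last dose. Each group had 3 libraries. Whether a library was 1 mouse or a pool was not stated, so p-values measure the spread between libraries only. The vehicle, AG221 and ruxolitinib libraries carry names with the letter A and the WT and combined libraries names with B. The meaning of the letters was not stated, and between A and B groups the letter and the group cannot be told apart. Whether the WT cells came from transplanted mice was not stated.

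Mitochondrial genes are transcribed from both strands of a small circular genome as long precursors that are cut into messenger, ribosomal and transfer RNAs. All members but mt-Nd6 are read from the same strand, so their RNAs start from shared precursors and then differ mainly through how long each lasts. Every protein made from them joins nuclear-encoded subunits in the inner membrane, where complexes I, III and IV pump protons and complex V makes ATP, and stem cells are known for relying on this chain less than their dividing progeny.

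The 15 libraries held 18836625 to 32174287 gene-assigned counts. All 11 LSK markers were detected in every group, and their summed level was 4358 to 4746 CPM (TMM-scaled counts relative to library size) in WT and 2816 to 4072 CPM in the vehicle group. Markers of neutrophils and their precursors (10 genes, none at 0 in a whole group) summed to 3475 to 3831 CPM in WT and 7839 to 12849 CPM in the vehicle group, ranges that did not overlap. In bulk samples, fewer cells of a type and less RNA per cell cannot be told apart.

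The counts fell into a well measured and a barely measured set. Over the 15 libraries, mt-Co1 held 1090878 counts, mt-Cytb 830939, mt-Nd1 396589, mt-Nd5 274875, mt-Nd4 134655, mt-Nd2 93699 and mt-Nd6 32400. By contrast, mt-Co3 held 135 counts (4 to 21 in a library), mt-Atp6 88 (1 to 12) and mt-Co2 65 (1 to 10). The 3 low members lie in 1 stretch after the well counted mt-Co1. mt-Co2 (chrM:7013-7696) starts just after mt-Co1 (chrM:5328-6872) on the same strand, and mt-Atp6 (chrM:7927-8607) runs into mt-Co3 (chrM:8607-9390), all in GRCm38 coordinates, the build that mm10 names.

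Nearly all of the sequence of the 3 low members is also carried by nuclear genes. Of all 50-base windows of mt-Co2, 100% were also found, letter for letter, in an annotated nuclear transcript of GENCODE, and the shares for mt-Co3 and mt-Atp6 were 99.9% and 99.5%. The share was 62.2% for mt-Nd4, 51.1% for mt-Co1, 8.19% for mt-Nd2, 7.61% for mt-Nd5 and 0% for mt-Nd1, mt-Nd6 and mt-Cytb. The nuclear genes are pseudogenes, copies of mitochondrial DNA in the nuclear genome. The first 60 bases of 3 members are shown with their copies to let the letters be compared, and capitals mark the positions at which a member and the differing copy beneath it do not match. Gm28661 (chr1:24615506-24615565, minus strand) matched mt-Co2 at every base, while Gm13341 (chr2:22587903-22587962, minus strand) differed at 2.
mt-Co2: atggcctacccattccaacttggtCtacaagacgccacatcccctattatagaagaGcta
Gm28661: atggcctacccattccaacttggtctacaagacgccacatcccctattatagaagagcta
Gm13341: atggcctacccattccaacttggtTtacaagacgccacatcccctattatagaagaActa
The well counted mt-Cytb (chrM:14145-14204 shown) and its copy Gm11410 (chr4:80003989-80004048, plus strand) differed at 3 of the first 60 bases.
mt-Cytb: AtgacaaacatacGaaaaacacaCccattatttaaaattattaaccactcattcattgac
Gm11410: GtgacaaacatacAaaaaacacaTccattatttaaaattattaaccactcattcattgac
mt-Nd6, read from the minus strand (chrM:14011-14070 shown), and its copy Gm11408 (chr4:80003855-80003914, minus strand) differed at 2.
mt-Nd6: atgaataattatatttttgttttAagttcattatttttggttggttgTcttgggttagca
Gm11408: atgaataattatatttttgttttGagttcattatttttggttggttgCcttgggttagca

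The share did not order the counts: mt-Co1, at 51.1%, held the most counts of the members, and mt-Nd4, at 62.2%, held more than mt-Nd2, at 8.19%. Among the mitochondrial protein genes outside the 10, mt-Nd3, at 98.0% shared windows, held 2275 counts and mt-Nd4l, at 98.8%, held 2. mt-Atp8, a short gene that lies between mt-Co2 and mt-Atp6 and overlaps mt-Atp6, held 9 counts. None of its windows was found in an annotated nuclear transcript. Unannotated nuclear copies were not searched, so sequence that it shares with them would be missed. How reads that match more than 1 place were counted was not stated beyond the counting tool's defaults, and the part of shared sequence in the low counts was not tested. mt-Co2, mt-Co3 and mt-Atp6 are therefore given no comparison between groups: mt-Co2 did not pass the filter on low counts, and mt-Co3 and mt-Atp6 passed it with no more than 21 counts in any library. Neither was called in any of the 11 comparisons made from the fit of all 15 libraries. The other 7 members, with at least 1000 counts in every library, are called well measured here. mt-Co1 and mt-Nd4 share much of their sequence with nuclear genes too, and their levels are uncertain for it.

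**Figure D1:**
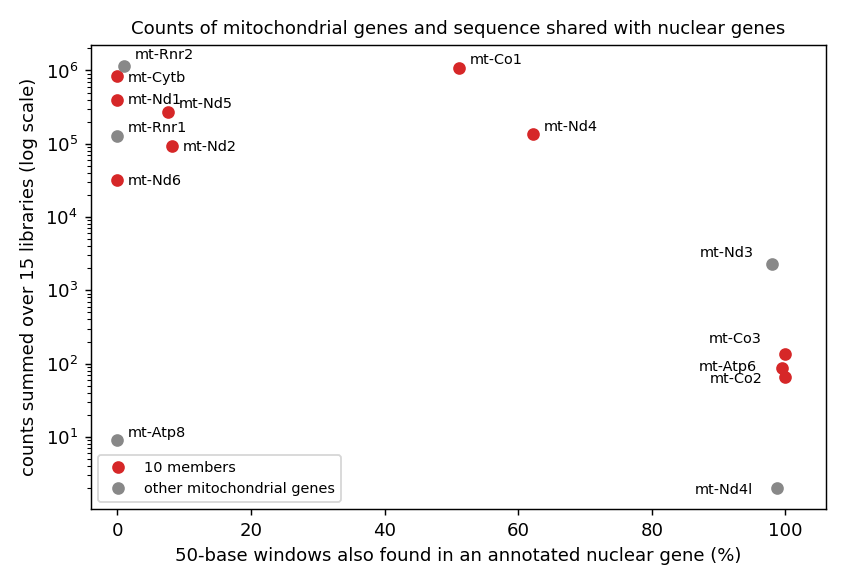
Counts summed over the 15 libraries (vertical axis, log scale) against the percent of a gene's 50-base windows that an annotated nuclear transcript also holds, with the 10 members in red and other mitochondrial genes in grey. mt-Co2, mt-Co3 and mt-Atp6 sit at 99.5% or more and at 135 counts or fewer, while the members at 0% hold 32400 counts or more.

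Per length, the members' levels spanned a wide range. The median over the 15 libraries was 1833 CPM per kb for mt-Co1, 1818 for mt-Cytb, 1056 for mt-Nd1, 365 for mt-Nd5, 239 for mt-Nd4, 225 for mt-Nd2 and 152 for mt-Nd6. The terminal oxidase subunit mt-Co1 and the cytochrome b gene thus led, and the light-strand gene mt-Nd6 was lowest among the 7 well measured members. Dividing by the length of unshared windows alone raised mt-Co1 to 3874 and mt-Nd4 to 657 CPM per kb, which moved mt-Nd4 past mt-Nd5 at 406. mt-Nd5 (chrM:11742-13565) and mt-Nd6 (chrM:13552-14070) overlap at their ends on opposite strands. The strand setting of the counting was not stated, so reads from the overlap cannot be assigned.

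AG221 alone gave the highest mean of the 5 groups for each of the 7 well measured members. mt-Nd1, a core subunit of complex I in the membrane arm, was at 691, 643 and 744 CPM in the WT libraries (B28, B30 and B31), at 1011, 986 and 1029 in the vehicle libraries (A1, A3 and A4) and at 1665, 1244 and 1564 under AG221 (A8, A9 and A10). Under ruxolitinib (A14, A16 and A17) it was at 894, 1202 and 1093 CPM, and in the combined group (B24, B25 and B26) at 904, 959 and 1017. Every AG221 library was above all other libraries, and every WT library was below all others.

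mt-Nd4, another complex I subunit, had no such step between WT and vehicle. Its level was 303, 293 and 339 CPM in WT, 318, 308 and 345 with vehicle, 525, 439.9 and 503 with AG221, 267, 335 and 302 with ruxolitinib and 329.7, 306 and 380.3 with both drugs. The AG221 libraries were again the 3 highest of 15, and the other 4 groups overlapped.

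mt-Co1, the catalytic subunit of cytochrome oxidase, overlapped between the vehicle and AG221 groups. It was at 2444, 2426 and 2509 CPM in WT, 2867, 3101 and 2882 with vehicle, 3984, 3015 and 3721 with AG221, 2275, 2832 and 2608 with ruxolitinib and 2480.1, 2488 and 3015 with both drugs. AG221 library A9 fell within the vehicle range.

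mt-Nd6 had a lower level and the same order at the top. It was at 66.4, 69.9 and 78.7 CPM in WT, 78.7, 80.0 and 76.0 with vehicle, 134, 103 and 118 with AG221, 65.9, 76.7 and 76.4 with ruxolitinib and 92.3, 69.7 and 92.3 with both drugs. The AG221 libraries were above all others. mt-Nd2, mt-Nd5 and mt-Cytb had group means of 347 ± 44.7, 981 ± 157 and 2844 ± 389 CPM (SD, n = 3) with AG221 against 229 ± 32.6, 669.6 ± 25.5 and 2072 ± 136 with vehicle.

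In the order of group means, most neighbours overlapped. The gap below AG221 was free of overlap for mt-Nd1 and mt-Nd2 (against ruxolitinib) and for mt-Nd4, mt-Nd5 and mt-Nd6 (against the combined group). The gap between the combined group and WT was free of overlap for mt-Nd1. For mt-Cytb and mt-Co1 no pair of neighbouring groups was free of overlap. The share of all genes with such gaps is not given. The libraries of a group also moved as sets: A9 was the lowest and A8 the highest AG221 library in 7 of 7 members, and A14 was the lowest and A16 the highest ruxolitinib library in 7 of 7. Over the 15 libraries, the 21 pairs of members correlated in log2 CPM with Pearson's r of 0.781 to 0.974 (median 0.880), given as a description because the points share groups, library scaling and base composition.

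**Figure D2:**
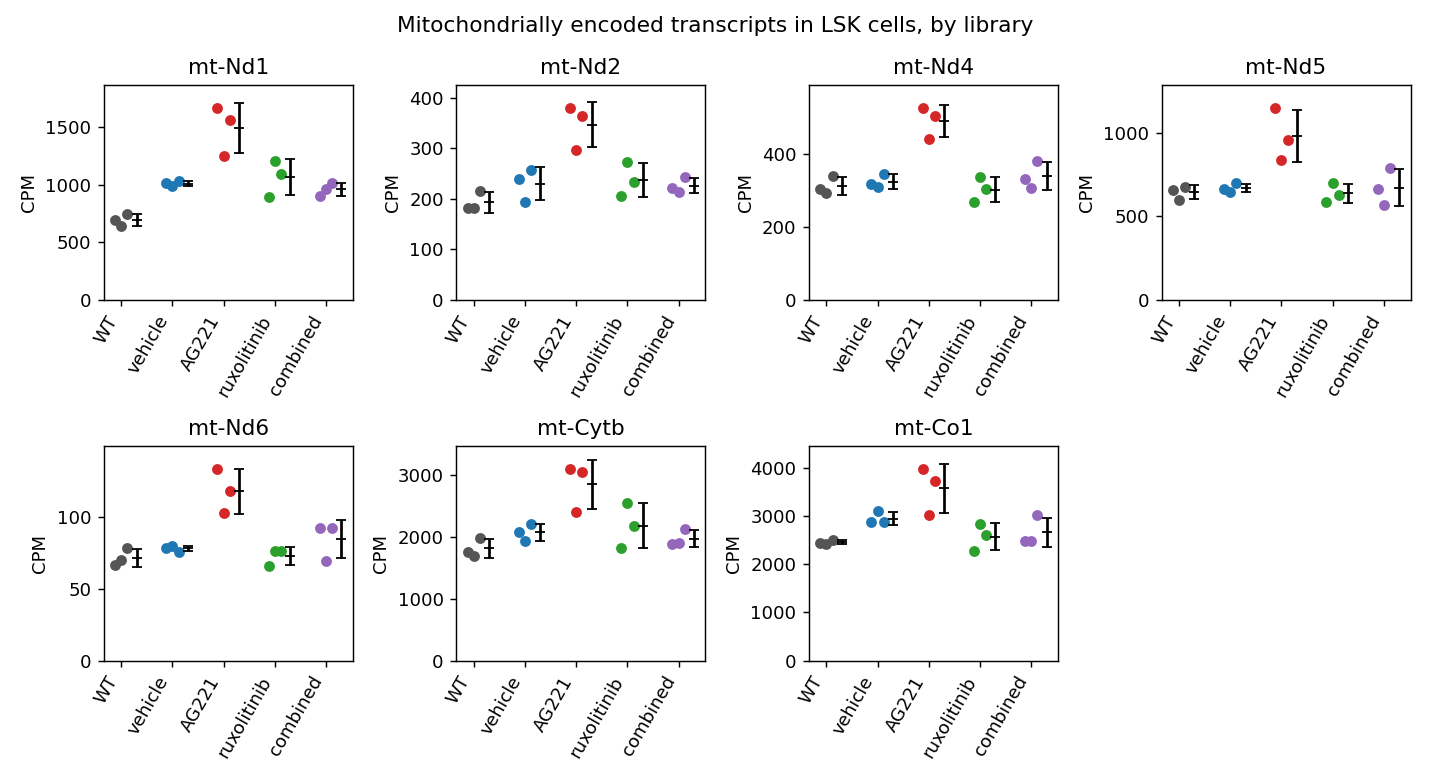
CPM of the 7 well measured members by library (points) with the group mean and SD (n = 3) beside each group, on axes that start at 0. The AG221 points (red) lie above every other point except in mt-Cytb and mt-Co1, where library A9 overlaps other groups, and the WT points (grey) of mt-Nd1 lie below all others.

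The comparison of AG221 with vehicle asks what mutant IDH2 inhibition alone does to these cells, and both groups are of letter A. All 7 well measured members were higher with AG221, with a median log2 fold change of 0.56 where the median of all 17834 genes tested was -0.01. mt-Nd4 alone passed the edgeR quasi-likelihood test (a p adjusted over all genes tested, under 0.05), with a log2 fold change of 0.60 (SE 0.13, adjusted p = 0.0457), against 0.471% of all genes called higher. mt-Nd2 (log2 0.60, SE 0.15, adjusted p = 0.0614), mt-Nd6 (0.60, SE 0.14, adjusted p = 0.0593), mt-Nd1 (0.56, SE 0.13, adjusted p = 0.0578) and mt-Nd5 (0.55, SE 0.14, adjusted p = 0.0625) were close to the threshold. mt-Cytb was at 0.46 (SE 0.14, adjusted p = 0.0885) and mt-Co1 at 0.28 (SE 0.13, adjusted p = 0.196). All 7 had an unadjusted p under 0.05, as had 25.2% of all genes, and the groups did not overlap in 6 of 7, as in 12.7% of all genes in the same direction.

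That call was not stable. The share of all genes called is not given for the DESeq2 fit or for the fits without 1 library. The member counts of those fits are therefore not set against all genes. The number of members called was 7 without AG221 library A9, where mt-Nd4 was at 0.66 (adjusted p = 0.00275), and 0 without any 1 of A1, A3, A4, A8 and A10, where its log2 fold change was 0.55 to 0.64 with adjusted p of 0.0839 to 0.201. DESeq2 called 6, and with upper quartile scaling 5 were called and the split of all calls went from 84 higher and 92 lower to 571 and 167 (123 and 90 with RLE scaling). Relative to the median of all genes the members stood 0.57 higher with TMM, the scaling used throughout, and 0.58 with upper quartile scaling, which moved that median by 0.19.

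Summed markers of several other cell types did not overlap between the same groups. The 10 neutrophil markers, Elane, Mpo, Prtn3 and S100a8 among them, summed to 17417 to 20502 CPM with AG221 and 7839 to 12849 with vehicle, and 8 monocyte and dendritic markers to 1908 to 2822 and 1118 to 1245 CPM. T and NK cell markers summed to 600 to 762 CPM with AG221 and 411 to 458 with vehicle. The megakaryocyte markers went the other way, at 303 to 530 and 747 to 798 CPM, as did immediate early genes, at 4667 to 6214 and 7638 to 16293. Of all genes on these 5 lists, 1, a neutrophil marker, was called. The LSK markers summed to 2866 to 3423 CPM with AG221 and 2816 to 4072 with vehicle. The part of cell mixture in the members' levels was not tested.

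Adding ruxolitinib to AG221 went with lower levels of every well measured member. In the combined group against AG221, 7 of 7 members fell, where 14.3% of all genes were called lower, and the groups did not overlap for any of the 7, as for 20.3% of all genes in that direction. The largest change was that of mt-Nd1, which fell by 0.64 on the log2 scale (SE 0.13, adjusted p = 0.00476), followed by mt-Nd2 (-0.62, SE 0.15, adjusted p = 0.00874), mt-Nd5 (-0.55, SE 0.14, adjusted p = 0.0121), mt-Nd4 (-0.53, SE 0.13, adjusted p = 0.00774) and mt-Cytb (-0.53, SE 0.14, adjusted p = 0.0128). mt-Nd6 fell by 0.48 (SE 0.14, adjusted p = 0.0223) and mt-Co1 by 0.43 (SE 0.13, adjusted p = 0.0222). The median over all genes was 0.11. mt-Nd3, which is outside the 10 and had 99 to 231 counts in a library, went the other way. It was at 0.37 (SE 0.28, adjusted p = 0.327), with 7.30 to 8.41 CPM in the combined group and 4.92 to 6.87 with AG221. Against vehicle the combined group had it at 0.62 (SE 0.28, adjusted p = 0.178). The neutrophil markers summed to 4302 to 7733 CPM in the combined group, below every AG221 library, with 8 of 10 called lower. Also below every AG221 library were the monocyte and dendritic markers at 542 to 1259 CPM (4 of 8 called lower), immediate early genes at 815 to 1429 (12 of 18), T and NK cell markers at 366 to 404 (1 of 7 tested) and mast cell and basophil markers at 252 to 410 (1 of 6). The part of these in the members' levels was not tested.

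The AG221 libraries carry the letter A and the combined libraries the letter B. The share of all genes called is not given for the fits without 1 library that follow. The number of members called was 3 without A8, 4 without A10, 5 without B24 and 4 without B25, and mt-Co1 was at -0.39, -0.45, -0.37 and -0.38 in those fits (adjusted p of 0.0680 to 0.0954). Calls over all genes were 3371 higher and 2546 lower with TMM, 2671 and 4359 with upper quartile scaling and 2866 and 3597 with offsets for GC content, and the members' median minus that of all genes was -0.64, -0.66 and -0.46.

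The vehicle and ruxolitinib libraries carry the letter A and the combined libraries B, so letter and drugs cannot be told apart between them. The combined group was not distinguished from vehicle. With edgeR 0 of 7 members were called, 0 had an unadjusted p under 0.05 and DESeq2 called 0, where edgeR called 12.5% of all genes and 26.4% had an unadjusted p under 0.05. Their log2 fold changes ran from -0.15 to 0.11 (median -0.02), and 2 SE around the single values reached from -0.40 to 0.40. Ruxolitinib against vehicle also gave 0 calls of 7, 0 at an unadjusted p under 0.05 and 0 with DESeq2, where 0.0168% of all genes were called and 4.56% had such a p. The log2 fold changes were -0.20 to 0.08 (median -0.07), within -0.45 to 0.36 at 2 SE. Of the 7, mt-Co1 alone did not overlap, at 2275 to 2832 CPM with ruxolitinib and 2867 to 3101 with vehicle. The share of all genes without overlap is not given for that comparison, so no weight is put on it. The combined group against ruxolitinib gave 0, 0 and 0 in the same order, where edgeR called 12.4% of all genes and 25.4% had such a p, with a range of -0.15 to 0.22 and limits of -0.43 to 0.50.

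AG221 against ruxolitinib, both of letter A, gave 3 calls of 7, all higher with AG221, where 2.06% of all genes were called higher. mt-Nd4 was at 0.70 (adjusted p = 0.0193), mt-Nd6 at 0.70 (adjusted p = 0.0294) and mt-Nd5 at 0.62 (adjusted p = 0.0383), while mt-Nd1 (0.49, adjusted p = 0.0593), mt-Nd2 (0.55, adjusted p = 0.0586), mt-Co1 (0.47, adjusted p = 0.0571) and mt-Cytb (0.38, adjusted p = 0.122) did not pass. The number called was 7 without A9 and 0 without any 1 of A8, A10, A14 and A17, where mt-Nd4 was at 0.62 to 0.74 with adjusted p of 0.0716 to 0.0915. Calls over all genes were 367 higher and 245 lower in the fit of all 15 libraries, and 701 and 185 with upper quartile scaling. They are not given for the fits without 1 library. The interaction of the drugs, which asks whether the AG221 effect was the same with and without ruxolitinib, was called for mt-Nd1 only, at -0.71 (SE 0.19, adjusted p = 0.0429), where 2.82% of all genes were called lower. The other 6 members were between -0.66 and -0.23, and 5 of the 7 had an unadjusted p under 0.05, as had 32.0% of all genes. That call was lost in 9 of the 12 fits without 1 library, all but those without A9, A14 or B26, at -0.74 to -0.66 and with adjusted p of 0.0559 to 0.113. Over all genes the term was called higher for 999 and lower for 503, and for 1162 and 1962 with upper quartile scaling.

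**Figure D3:**
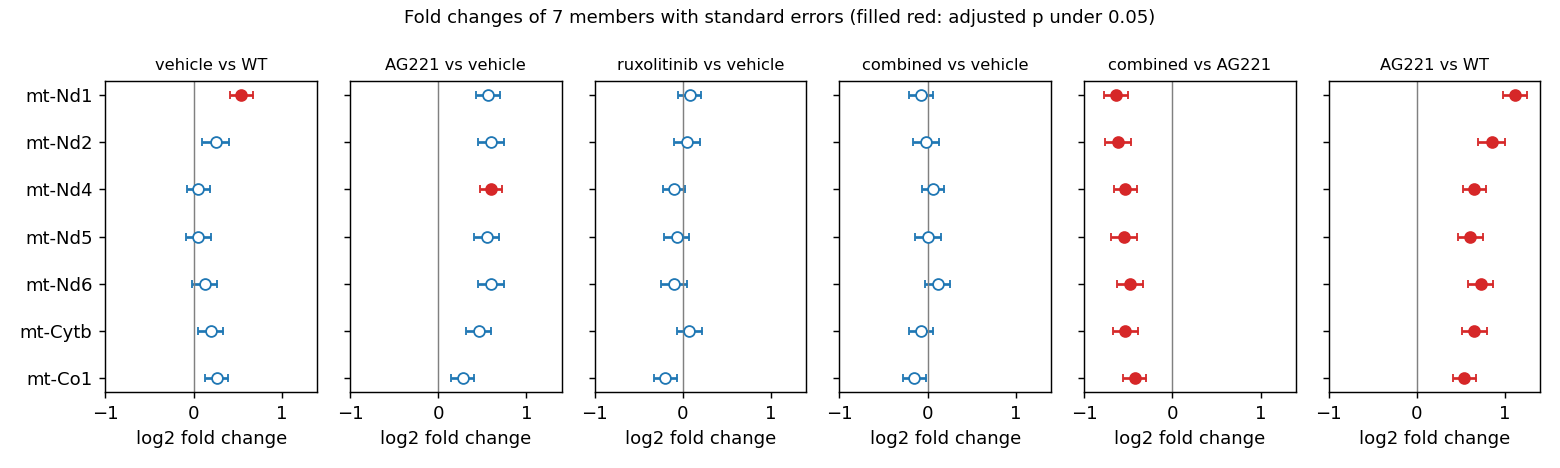
Log2 fold changes of the 7 well measured members with standard errors from the fit across all genes, in 6 comparisons, with filled red points for adjusted p under 0.05. AG221 shifts all 7 to the right against vehicle, the combined group shifts all 7 to the left against AG221, and mt-Nd1 alone is called in vehicle against WT.

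The vehicle group against WT asks how JAK2/IDH2-mutant cells in transplanted hosts differ from normal LSK cells. mt-Nd1 rose 1.46-fold (log2 0.54, SE 0.13, adjusted p = 0.0114), where 15.4% of all genes were called higher. It was the 1 member called. mt-Co1 was at 0.26 (SE 0.13, adjusted p = 0.124) and mt-Nd2 at 0.25 (SE 0.15, adjusted p = 0.204). Groups did not overlap for 2 members, mt-Nd1 and mt-Co1, as for 25.6% of all genes in that direction. mt-Cytb was at 0.19, mt-Nd6 at 0.13, mt-Nd4 at 0.06 and mt-Nd5 at 0.05, with adjusted p of 0.295 to 0.787, and the signs of mt-Nd4 and mt-Nd5 turned with upper quartile scaling. The median of all genes was -0.09.

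The mt-Nd1 call was lost without WT library B30, at 0.49 (adjusted p = 0.0564), with upper quartile scaling, at 0.45 (adjusted p = 0.0752), and with at least 10 counts in every library, at 0.40 (adjusted p = 0.0554). Offsets for GC content called 6 members, and calls over all genes went from 2747 higher and 3190 lower to 1306 and 3586 with upper quartile scaling and 4158 and 2759 with the offsets, which moved the median of all genes by 0.19. Relative to that median the members stood 0.29 higher with TMM and 0.38 with the offsets. The members have a GC content of 34.1% to 39.9% against a median of 49.0% over the genes tested. Immediate early genes, a list of 18, summed to 7638 to 16293 CPM with vehicle and 884 to 1210 CPM in WT, with 15 called higher. The summed markers of erythroid, megakaryocyte, mast cell, monocyte and T and NK cells were above WT in every vehicle library, and those of B lineage and plasma cells below. The part of these in the members' levels was not tested.

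mt-Nd1 was also the 1 member called in ruxolitinib against WT. It was at 0.62 (SE 0.13, adjusted p = 0.00702), where 16.1% of all genes were called higher. The combined group against WT, both of letter B, gave 0 calls with edgeR, 1 at an unadjusted p under 0.05 and 1 with DESeq2, where 3.25% of all genes were called by edgeR and 25.4% had an unadjusted p under 0.05. That 1 was mt-Nd1, at 0.47 (SE 0.13, adjusted p = 0.0660 with edgeR and 0.0301 with DESeq2), and its groups did not overlap. The share of all genes without overlap is not given for that comparison. AG221 against WT gave 7 calls of 7, where 22.2% of all genes were called higher, from 0.54 for mt-Co1 (adjusted p = 0.00461) to 1.11 for mt-Nd1 (SE 0.14, adjusted p = 0.000146). Calls over all genes in ruxolitinib against WT were 2867 higher and 2892 lower, 1711 and 3320 with upper quartile scaling and 3926 and 2418 with GC content offsets. In AG221 against WT they were 3962 and 5077, and 5339 and 4009 with the offsets, and in the combined group against WT 291 and 288, and 102 and 539 with upper quartile scaling.

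The makeup of the mitochondrial messages showed the same gene apart. This measure was chosen after its values were seen, uses the same counts as the tests above and is given with no test. mt-Nd1 took 11.3%, 10.9% and 11.4% of the members' counts in WT, 13.9%, 13.6% and 13.7% with vehicle, 15.2%, 14.9% and 15.2% with AG221, 14.6%, 15.1% and 15.4% with ruxolitinib and 13.8%, 14.8% and 13.3% with both drugs. The WT libraries were the 3 lowest of 15, also within letter B. Counts of mt-Nd1 over those of mt-Nd5, which has nearly the same GC content (37.6% and 37.1%), were 1.05 to 1.10 in WT and 1.29 to 1.74 in the other 12 libraries. The parts of base composition and of the letter were not tested. The ratio also carries differences in mt-Nd5. That gene took 10.15% to 10.8% of the members' counts in WT, 8.92% to 9.31% with vehicle and 9.33% to 10.5% with AG221. With ruxolitinib it took 8.78% to 9.58%, and with both drugs 8.73% to 10.3%.

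The shares of mt-Nd4 and mt-Co1 also differed between groups. mt-Nd4 took 4.25% to 4.61% with vehicle and 4.20% to 4.38% with ruxolitinib, below the 4.71% to 5.28% of the other 9 libraries. mt-Co1 took 36.2% to 36.4% with AG221 and 35.5% to 37.3% with ruxolitinib. It took 38.5% to 42.8% with vehicle, 38.3% to 41.1% in WT and 37.7% to 39.4% with both drugs. The members together made up 0.804% to 1.003% of a library's total count with AG221 and 0.693% to 0.707% with vehicle, and 0.688% to 0.740% in WT, 0.590% to 0.760% with ruxolitinib and 0.637% to 0.769% with both drugs. AG221 libraries were above every other library on this share as well.

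**Figure D4:**
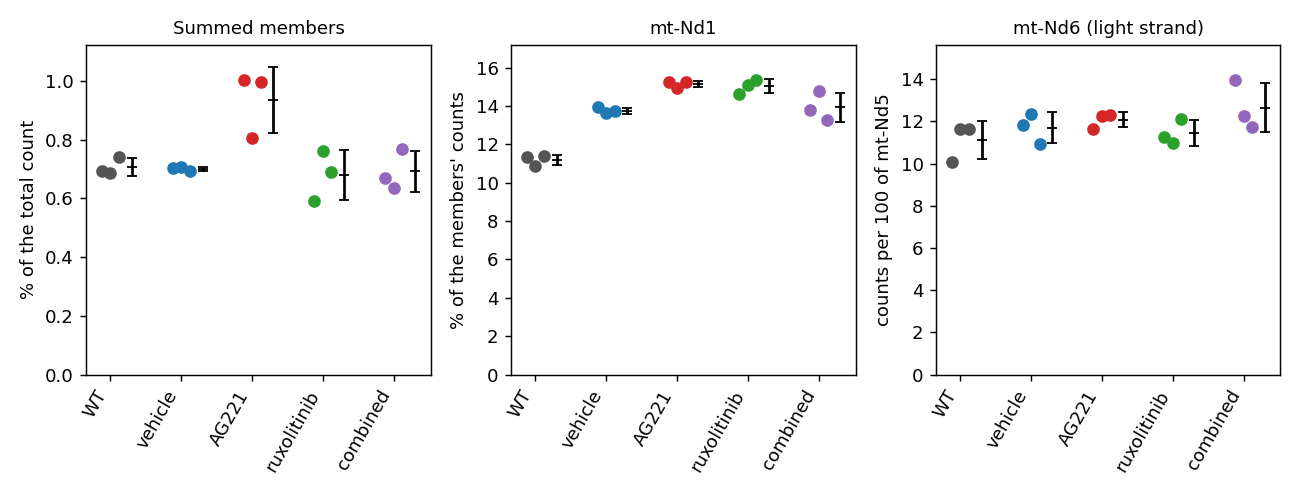
Left, the members' summed counts as a percent of each library's total; centre, mt-Nd1 as a percent of the members' counts; right, mt-Nd6 counts per 100 counts of mt-Nd5, each by library with mean and SD (n = 3) and axes from 0. AG221 stands highest on the left, WT stands lowest in the centre at 10.9% to 11.4%, and the groups overlap or nearly touch on the right.

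mt-Nd6 is the member read from the light strand, and its balance against its heavy-strand neighbour mt-Nd5 was compared over libraries. mt-Nd6 had 10.1 to 11.7 counts per 100 of mt-Nd5 in WT, 10.9 to 12.4 with vehicle, 11.7 to 12.3 with AG221, 10.96 to 12.1 with ruxolitinib and 11.7 to 13.96 with both drugs. The log2 ratio was -3.10 ± 0.0924 with vehicle and -3.05 ± 0.0445 with AG221 (SD, n = 3), a difference of 0.05 (exact permutation test, two-sided, p = 0.7). Of 10 comparisons, AG221 and the combined group against WT were the 2 without overlap, at 0.12 and 0.18, each with p = 0.1 in the exact permutation test, the smallest that 3 against 3 libraries allow, and 0.5 after adjustment. A difference in strand balance was not detectable with 3 libraries a group.

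The mitochondrial ribosomal RNAs lie on the heavy strand ahead of mt-Nd1. mt-Rnr1 was at a log2 fold change of 0.63 (SE 0.14, adjusted p = 0.0537) and mt-Rnr2 at 0.45 (SE 0.12, adjusted p = 0.0631) in AG221 against vehicle, and in the combined group against AG221 both fell, by 0.66 (adjusted p = 0.00536) and 0.59 (adjusted p = 0.00403). In ruxolitinib against vehicle they were at -0.29 and -0.28, each with an adjusted p of 1. The groups did not overlap, but the share of all genes without overlap is not given for this comparison. mt-Rnr1 was at 248 to 262 CPM with ruxolitinib and 272 to 350 with vehicle, and mt-Rnr2 at 2398 to 2683 and 2828 to 3296. Their summed counts over those of the members were 0.369 to 0.433 with ruxolitinib and 0.414 to 0.503 with vehicle, which overlapped.

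Nuclear genes supply the other subunits of the complexes that hold the members, and 74 of them (complexes I, III, IV and V) were tested. In AG221 against vehicle, 6 rose and 0 fell, beside 0.471% and 0.516% of all genes, with a median log2 fold change of 0.57 beside 0.56 for the members. Those named by rule were Ndufa11 of complex I (0.74, SE 0.15, adjusted p = 0.0457), Cox7a2 (0.78, SE 0.16, adjusted p = 0.0457) and Ndufa4 (0.75, SE 0.16, adjusted p = 0.0469) of complex IV and Atp5j of complex V (0.64, SE 0.13, adjusted p = 0.0457). Each of these 4 calls was lost without any 1 of A1, A3, A4, A8 and A10 and with only the groups compared, all but that of Cox7a2 also with no filter beyond 1 count, and their log2 fold changes ranged over all alternatives from 0.65 to 1.19, 0.69 to 0.98, 0.65 to 0.95 and 0.57 to 0.84.

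The combined group against AG221 had 43 of the 74 lower and 3 higher (median -0.52), beside 14.3% and 18.9% of all genes. Uqcrb of complex III fell by 0.96 (SE 0.16, adjusted p = 0.00244) and Atp5g1, a gene of the membrane ring of complex V, by 1.01 (SE 0.20, adjusted p = 0.00363), and both calls held in all 14 alternatives. The 3 that rose were Ndufab1, which also serves mitochondrial fatty acid synthesis (1.53, adjusted p = 0.0341), and the complex III genes Cyc1 (2.0, adjusted p = 0.0243) and Uqcrfs1 (2.16, adjusted p = 0.0179). These 3 calls were lost without A8 and without A10, that of Ndufab1 also without B24, B25 or B26, that of Cyc1 without B25 and both with only the groups compared, and over the alternatives the values ran from 1.13 to 2.63, 1.20 to 3.41 and 1.75 to 3.44. Ruxolitinib and the combined group against vehicle each had 0 of 74 called in either direction, with medians of 0.11 and 0.02 beside 0.01 and 0.04 for all genes. The combined group had 8.28% of all genes higher and 4.21% lower.

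In vehicle against WT, 37 of the 74 rose and 0 fell, where 15.4% of all genes were higher and 17.9% lower. Their median was 0.50 beside 0.19 for the 7 members. Ndufb6 (0.85, SE 0.19, adjusted p = 0.00811) of complex I and Atp5a1 (0.66, SE 0.13, adjusted p = 0.00548), the alpha subunit of the ATP synthase, rose and did so in all 14 alternatives. By complex, 16 of 36 rose in complex I, 6 of 9 in III, 6 of 12 in IV and 9 of 17 in V, and all 4 genes of complex II, which has no mitochondrially encoded subunit, rose as well. AG221 against WT had 59 of 74 higher and 3 lower (median 1.02), beside 22.2% and 28.5% of all genes and a median of -0.25. The combined group against WT had 8 higher and 0 lower (median 0.52), beside 3.25% of all genes called in either direction.

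**Figure D5:**
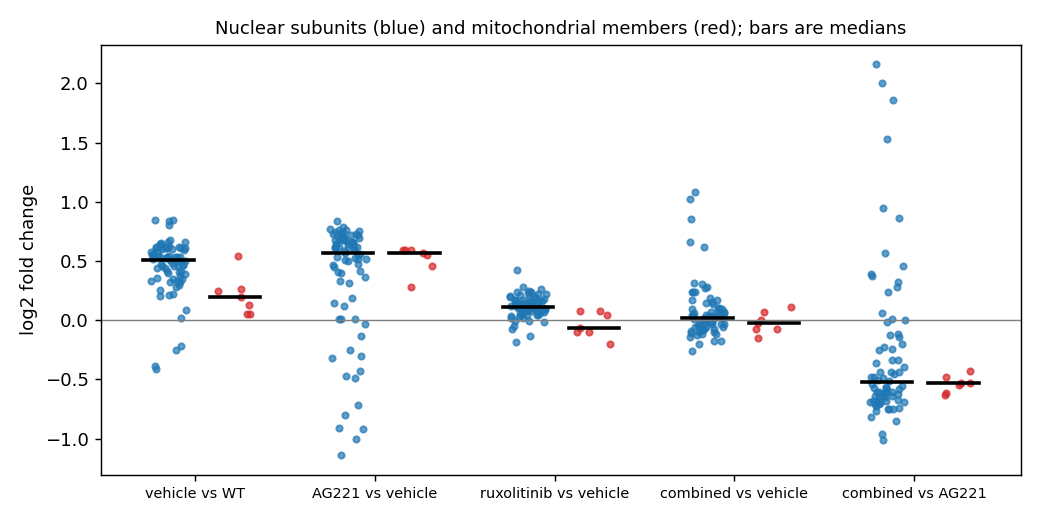
Log2 fold changes of 74 nuclear subunits (blue) and the 7 well measured members (red) in 5 comparisons, each point a gene and each bar a median. In vehicle against WT the bars stand at 0.50 and 0.19, in AG221 against vehicle at 0.57 and 0.56, and in the combined group against AG221 at -0.52 and -0.53.

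The mitochondrial ribosome, which translates only the members and the 3 other mitochondrial messages, was followed through 76 nuclear genes. In vehicle against WT 32 rose and 1 fell (median 0.49), where 15.4% of all genes were higher and 17.9% lower. Mrpl16 was among those that rose, at 1.05 (SE 0.19, adjusted p = 0.00331), a call kept in all 14 alternatives. In AG221 against vehicle 0 were called with a median of 0.42, where 0.471% of all genes were higher and 0.516% lower. In the combined group against AG221 5 rose and 41 fell (median -0.47), where 18.9% were higher and 14.3% lower. Against vehicle the combined group had 1 called, Mrps30, which rose by 2.46 (SE 0.50, adjusted p = 0.00705). Of all genes, 8.28% were higher and 4.21% lower in that comparison. Of 16 translation factors, beside the same shares of all genes, 3 rose and 2 fell in vehicle against WT. In combined against vehicle 2 rose, among them the release factor Mtrf1l (2.07, SE 0.41, adjusted p = 0.00600).

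The genes that transcribe and maintain mitochondrial DNA numbered 18. In vehicle against WT 2 rose and 0 fell, where 15.4% of all genes were higher and 17.9% lower, and in the combined group against AG221 3 rose and 3 fell, where 18.9% were higher and 14.3% lower. In AG221 and in the combined group against vehicle 0 were called, where 0.471% and 8.28% of all genes were higher. Polrmt, the mitochondrial RNA polymerase, was at -1.25 (SE 0.50, adjusted p = 0.148) in AG221 against vehicle while the members were at positive values. It rose by 1.41 (SE 0.50, adjusted p = 0.0444) in the combined group against AG221 while the members fell. That call was lost without A8, A10, B24, B25 or B26, with GC content offsets and with only the groups compared, over a range of 0.68 to 2.62 in the alternatives. Tfam, which packages the genome and starts transcription, was at -0.32 (SE 0.17, adjusted p = 0.261) in AG221 against vehicle.

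Of 19 RNA processing and stability genes, 3 rose in vehicle against WT, where 15.4% of all genes were higher and 17.9% lower. In AG221 against vehicle 0 were called, where 0.471% were higher and 0.516% lower. In the combined group 2 rose and 1 fell against vehicle, where 8.28% were higher and 4.21% lower. Against AG221 that group had 5 higher and 6 lower, where 18.9% of all genes were higher and 14.3% lower. Tbrg4, which stabilises several mitochondrial messages, rose by 1.08 in vehicle against WT (SE 0.18, adjusted p = 0.00254) and fell by 1.10 in the combined group against AG221 (SE 0.18, adjusted p = 0.00245). Lrpprc, which protects mitochondrial messages, rose by 1.64 in the combined group against AG221 (SE 0.38, adjusted p = 0.00729) and by 1.32 against vehicle (SE 0.38, adjusted p = 0.0365). The latter call was lost without A1, A3, B24, B25 or B26, at 1.03 to 1.77 over the alternatives. Its partner Slirp was at 0.73 (SE 0.18, adjusted p = 0.0604) and the RNA-degrading Pnpt1 at -0.72 (SE 0.27, adjusted p = 0.125) in AG221 against vehicle. Grsf1, of the mitochondrial RNA granules, rose by 1.20 in the combined group against vehicle (SE 0.23, adjusted p = 0.00502).

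Of 10 regulators of mitochondrial biogenesis, 1 rose and 2 fell in vehicle against WT, where 15.4% of all genes were higher and 17.9% lower. In AG221 against vehicle 0 were called, where 0.471% were higher and 0.516% lower. In the combined group against vehicle 1 rose and 1 fell, where 8.28% were higher and 4.21% lower. The coactivator Ppargc1a fell by 2.30 (SE 0.52, adjusted p = 0.00810) in vehicle against WT, and Nrf1, a nuclear activator of respiratory genes, rose by 0.40 (SE 0.14, adjusted p = 0.0479). The Nrf1 call was lost without A1, A3, A4, B30 or B31, with upper quartile scaling and with either other filter on low counts, at 0.26 to 0.57 over the alternatives. In the combined group against vehicle Ppargc1b fell by 0.80 (SE 0.20, adjusted p = 0.0180), a call lost without A1, B24, B25 or B26 at -1.06 to -0.68, and Yy1 rose by 0.92 (SE 0.17, adjusted p = 0.00432). Pprc1 rose by 0.93 (SE 0.31, adjusted p = 0.0350) in the combined group against AG221 and lost its call without A8, A10, B24, B25 or B26, with upper quartile scaling, with GC content offsets and with only the groups compared, at 0.64 to 1.45.

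Of 12 genes of the mitochondrial unfolded protein response, 3 rose and 1 fell in the combined group against vehicle, where 8.28% of all genes were higher and 4.21% lower. The inner membrane proteases Spg7 (2.32, SE 0.45, adjusted p = 0.00534) and Afg3l2 (2.04, SE 0.41, adjusted p = 0.00618) were among those that rose, and the stress factor Ddit3 fell by 0.89 (SE 0.16, adjusted p = 0.00406) after a rise of 0.92 in vehicle against WT (SE 0.16, adjusted p = 0.00293). Of 9 genes of mitophagy and mitochondrial DNA release, 2 rose, the kinases Pink1 (2.98, SE 0.57, adjusted p = 0.00504) and Ulk1 (0.98, SE 0.16, adjusted p = 0.00276). In vehicle against WT these 2 lists had 5 higher and 2 lower, and 2 higher and 2 lower, where 15.4% and 17.9% of all genes were called. In AG221 against vehicle neither had a call, where 0.471% of all genes were higher and 0.516% lower.

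The 5 nuclear genes whose log2 CPM followed the mean of the members most closely over the 15 libraries, of 10461 compared, were Eef1b2 (r = 0.963), Ptrh2 (0.958), Rps4x (0.956), Hddc2 (0.955) and Zfp277 (0.953). Eef1b2 is a translation elongation factor, Rps4x a protein of the small cytosolic ribosomal subunit and Ptrh2 a peptidyl-tRNA hydrolase of mitochondria. Eef1b2 was at 243 to 324 CPM with AG221, 197 to 210.3 with vehicle and 142 to 189 in WT, so its AG221 libraries too were above the vehicle libraries. These likenesses are a description, with points that share groups and library scaling.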

How the data were processed

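LSK cells were profiled by RNA sequencing of amplified cDNA in 15 libraries, 3 in each of 5 groups taken from the sample labels. The authors deposited raw read counts per Ensembl gene, made by paired-end alignment to mm10 with STAR 2.5.1a and its own counting, and a second table of counts divided by DESeq2 1.6.3 size factors, a normalized signal per gene that was only checked against the raw counts. The Ensembl release and the strand setting are not given in the sources used here. The 10 members and the lists were chosen with earlier results of these data known.

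Symbols, positions and transcript sequences came from GENCODE (GRCm38) and matched 44585 of 45232 gene IDs. The counts were filtered with filterByExpr, which left 17834 genes, scaled by TMM and fitted with edgeR 4.0.16 (R 4.3.3, quasi-likelihood test, all groups in 1 fit, Benjamini-Hochberg adjusted p over all genes tested, calls under 0.05), with a prior count of 2 for log2 CPM. Members were searched in 50-base windows against annotated nuclear transcripts, and copies were aligned with BLAST+ 2.17.0 (at least 200 bases at 90% identity). Pairs of libraries within a group differed beyond sampling noise (chi-square over degrees of freedom of 13.7 to 155), so none was counted as a duplicate. The steps were run on simulated counts with changes set in the AG221 group alone. The simulated libraries had less spread than these data, so that run does not measure error rates here.

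All 10 members were named. From each list, up to 4 genes with the smallest p in vehicle against WT and in combined against vehicle could be named, and Polrmt, Tfam, Lrpprc, Slirp, Pnpt1, Ppargc1a, Ppargc1b, Pprc1 and Nrf1 whatever their value, with the 5 nuclear genes most like the members. Alternatives were DESeq2 1.42.0, other scalings and filters, GC content offsets (lowess span 0.3), fits on the groups compared only, and leaving out each library.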

Additional observations from a re-analysis of the deposited data

Results flagged for a closer look

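The AG221 effect on mt-Nd1 differed with and without ruxolitinib. In AG221 against vehicle mt-Nd1 was at a log2 fold change of 0.56, and in the combined group against ruxolitinib at -0.15. The interaction term was -0.71 (SE 0.19, edgeR quasi-likelihood test, adjusted p = 0.0429), where 2.82% of all genes were called lower. The AG221, vehicle and ruxolitinib libraries carry the letter A and the combined libraries the letter B, so the letter enters this term and cannot be told apart from it. With 1 library removed at a time, 9 of 12 fits lost the call, while the term ranged from -0.82 to -0.66 over the 12.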

How the results depend on the processing

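No paired analysis was possible because the replicate names are not shared between groups. Counts of members called moved as follows. They are given without the share of all genes called in each alternative, which can move as well. Vehicle against WT had 1 and became 0 with upper quartile scaling, 0 with at least 10 counts in every library and 6 with GC content offsets. AG221 against vehicle had 1 and became 6 with DESeq2, 5 with upper quartile scaling, 5 with at least 10 counts in every library, and 0 with no filter beyond 1 count, with GC content offsets and with only the groups compared. Combined against AG221 had 7 and became 4 with only the groups compared and 5 with no filter beyond 1 count. AG221 against ruxolitinib had 3 and became 6, 6, 1, 6 and 0 with DESeq2, upper quartile scaling, no filter, at least 10 counts and only the groups compared, and the interaction, with 1, became 3, 5, 0, 3 and 0 in that order. Ruxolitinib against WT had 1 and became 4 with GC content offsets, and combined against WT had 0 and became 1 with DESeq2, 2 with GC content offsets and 1 with only the groups compared. Leaving out 1 library gave 0 to 1 in vehicle against WT, 0 to 7 in AG221 against vehicle and against ruxolitinib, 3 to 7 in combined against AG221 and 0 to 5 in the interaction. AG221 against WT had 7 or 8 calls, and combined and ruxolitinib against vehicle and combined against ruxolitinib 0, in every alternative. All 7 well measured members were called each time in AG221 against WT. An 8th call was therefore 1 of the 3 low members, which are given no comparison here. Signs turned in vehicle against WT for mt-Nd4 (-0.035 with upper quartile scaling, -0.083 with at least 10 counts), mt-Nd5 (-0.035 and -0.084) and mt-Nd6 (-0.012 with at least 10 counts). mt-Nd1 in ruxolitinib against vehicle ran from -0.020 to 0.18 as libraries were left out. The mt-Nd6 ratio in vehicle against WT was -0.12 when taken over the other 9 members, and the ratio against mt-Nd5 ran from -0.0022 to 0.089 in AG221 against vehicle and from -0.081 to 0.0099 in ruxolitinib against vehicle. The causes were not tested. Of 35 calls of genes other than the members that were given with values, 23 held in every alternative.

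The counts limit mt-Co2, mt-Co3 and mt-Atp6, whose 135 counts or fewer over 15 libraries allow no statement on a difference between groups.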
